A study of Mus musculus with 20 samples.

Results

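A group of 9 genes that encode the scaffold of the excitatory postsynapse were followed through 20 bulk RNA-seq libraries of mouse hippocampus, to see whether Dlg4, the gene of PSD-95, moved alone or with the others. The genes were listed by function, with earlier results of these data known, and looked up by symbol. They make up 9 of the 49671 genes counted. They are Dlg4 and its paralogues Dlg1 (SAP97), Dlg2 (PSD-93) and Dlg3 (SAP102), the Shank genes Shank1, Shank2 and Shank3, Dlgap1 (GKAP) and Homer1. Each library came from 1 adult male wild-type mouse aged 10 to 12 weeks, with 5 mice in each of 4 groups. Control mice received isotype antibody by intraperitoneal injection. ICI mice received immune checkpoint inhibitors, namely anti-CTLA-4 at 1 mg per dose 3 times weekly and anti-PD-1 at 200 µg per dose 2 times weekly. Melanoma mice carried D4M-3A.UV2 tumours, a syngeneic mouse melanoma line, from intradermal injections of 500000 cells on both sides, and received isotype antibody after 1 week of engraftment. Melanoma plus ICI mice carried the same tumours and received the same antibodies as the ICI mice, for 3 weeks. Tissue was taken 72 hours after the last injection, so every group had been injected with antibody of some kind.

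At an excitatory synapse the membrane-associated guanylate kinases of the Dlg family bind glutamate receptors and their auxiliary subunits through PDZ domains. Dlgap proteins link this layer to the Shank proteins, and Homer ties Shank to metabotropic glutamate receptors and to the spine's calcium stores. In the hippocampus PSD-95 is the most studied of these proteins for its part in holding AMPA receptors at the synapse. Homer1 also makes a short form, Homer1a, which is induced by neuronal activity, and counts per gene do not separate it from the long forms. In bulk tissue, fewer cells of a type and less RNA per cell cannot be told apart.

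The libraries held 21990624 to 25735149 counts each. Genes that mark neurons and the dentate gyrus, CA1 and CA3 fields were measured in all 20 libraries, with summed levels of at least 125, 374 and 115 CPM (counts per 1000000 counts of the library) for the 3 fields. The libraries also differed in tissue that borders the hippocampus: choroid plexus genes summed to between 20.1 and 6489 CPM, and striatal genes to between 96.9 and 1002 CPM. Libraries of 2 mice stood apart, control replicate 4 and melanoma plus ICI replicate 1. In these, the log2 level of a gene dropped with transcript length, with slopes of -0.22 and -0.15 per doubling of length, against -0.03 to 0.07 in the other 18. Results that rest on these libraries are given with and without them.

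Measured per kilobase of exon, Dlg4 was the most abundant of the 9 genes, at 168 ± 16.5 CPM per kb (SD over 20 libraries). Dlg4 lies on chromosome 11 (70017085 to 70045532, as all positions here on GRCm38 and on the plus strand). Shank1, a scaffold of dendritic spines (chromosome 7, 44310253 to 44360572), came next at 77.2 ± 10.97 CPM per kb. Dlg4 was above Shank1 in 20 of 20 libraries and their ranges did not overlap.

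Dlg3 (chromosome X, 100767722 to 100818410), Shank3 (chromosome 15, 89499623 to 89560261) and Dlgap1 (chromosome 17, 69969073 to 70821413) followed, at 40.5 ± 7.16, 36.0 ± 6.64 and 33.8 ± 4.26 CPM per kb. Their ranges overlapped, with Dlg3 above Shank3 in 18 libraries and Shank3 above Dlgap1 in 15. Dlg2 (chromosome 7, 91090706 to 92449247) and Shank2 (chromosome 7, 144001928 to 144424494) were at 23.5 ± 3.51 and 22.4 ± 4.24 CPM per kb, and Dlg2 was the higher in 13 of 20 libraries. The means of Dlg3 and Shank3, of Shank3 and Dlgap1, and of Dlg2 and Shank2 differed by less than 1 SD over libraries, and those of Dlgap1 and Dlg2 by more, with Dlgap1 the higher in 20 of 20 libraries. Dlg1 (chromosome 16, 31663443 to 31873356) was at 15.3 ± 2.66 and Homer1 (chromosome 13, 93303757 to 93404129) at 9.51 ± 2.25 CPM per kb, with Dlg1 the higher in 20 of 20 libraries. Of the summed Dlg family per length, the share of Dlg4 was 69.3% ± 1.89 for control, 67.6% ± 1.26 for ICI, 68.2% ± 1.33 for melanoma and 66.7% ± 1.05 for melanoma plus ICI (SD, n = 5 each).

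RefSeq promoter windows on GRCm38.p6, 250 bases before to 50 after a start site, were at hand for 7 of the 9 genes. Some genes have several windows, and the one nearest the start of the gene is used here. The bases of that window ahead of the gene are printed for Dlg4, Shank3 and Homer1. Shank3 followed Dlg4 from library to library, and Homer1 did not. Capitals mark matches on either strand to the GC box (GGGCGG), the E-box (CACGTG) and the core of the cyclic AMP response element (TGACG); the full element TGACGTCA, which contains that core, was also searched.
Dlg4 promoter, chr11:70016953-70017084: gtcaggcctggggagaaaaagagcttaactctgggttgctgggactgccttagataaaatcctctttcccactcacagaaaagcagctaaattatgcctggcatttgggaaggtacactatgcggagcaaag
Shank3 promoter, chr15:89499358-89499607: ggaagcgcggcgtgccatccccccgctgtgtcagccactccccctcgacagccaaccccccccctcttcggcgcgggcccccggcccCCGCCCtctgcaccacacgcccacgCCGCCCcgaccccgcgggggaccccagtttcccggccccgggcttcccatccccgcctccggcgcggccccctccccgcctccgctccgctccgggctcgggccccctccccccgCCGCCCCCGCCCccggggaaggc
Homer1 promoter, chr13:93303507-93303756: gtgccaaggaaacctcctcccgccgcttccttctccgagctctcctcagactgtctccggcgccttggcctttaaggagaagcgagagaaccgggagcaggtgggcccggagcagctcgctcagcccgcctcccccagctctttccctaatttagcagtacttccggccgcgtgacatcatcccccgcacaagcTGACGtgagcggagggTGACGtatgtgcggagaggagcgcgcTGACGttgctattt
The Homer1 window holds 3 TGACG cores at 56, 40 and 14 bases before the start site, and 0 full elements. A window with 1 or more cores is common (20.8% of 32851 mouse promoter windows), and one with at least 3 is not (1.03%). The Shank3 window has 4 GC boxes, a number reached by 5.49% of windows, and 81.0% of its 300 bases are G or C, against a median of 52.7%. The Dlg4 window nearest the start of the gene holds 0 matches to any of the motifs and is 46.3% G or C. Other windows of these genes differ. A Dlg4 start site 6897 bases into the gene has 2 GC boxes and 1 core, at 60.0% G or C. Another, 1520 bases in, has 0 matches at 69.0% G or C. A second Homer1 window, with its start site 4277 bases in, holds 0 matches. A match describes these letters and is not a measured binding site.

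Dlg4 had its highest level in the ICI group and its lowest in melanoma plus ICI. The 5 control libraries had 795, 940, 899, 775 and 818 CPM, in the order of their replicate numbers. The ICI libraries had 905, 879, 1008, 915 and 764 CPM. The melanoma libraries had 934, 845, 796, 924 and 785 CPM, and those of melanoma plus ICI 706, 802, 793, 711 and 779 CPM. The melanoma plus ICI libraries all lay below the medians of the other 3 groups, but every pair of groups overlapped: control replicates 1 and 4, ICI replicate 5 and melanoma replicates 3 and 5 were below the highest melanoma plus ICI library. The mean of 5 was 845 ± 70.8 CPM for control mice, 894 ± 87.7 for ICI mice, 857 ± 70.0 for tumour-bearing mice on isotype antibody and 758 ± 45.8 for those on ICI (SD). Control, ICI and melanoma, neighbours in this order, do not differ beyond these SDs.

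**Figure D1:**
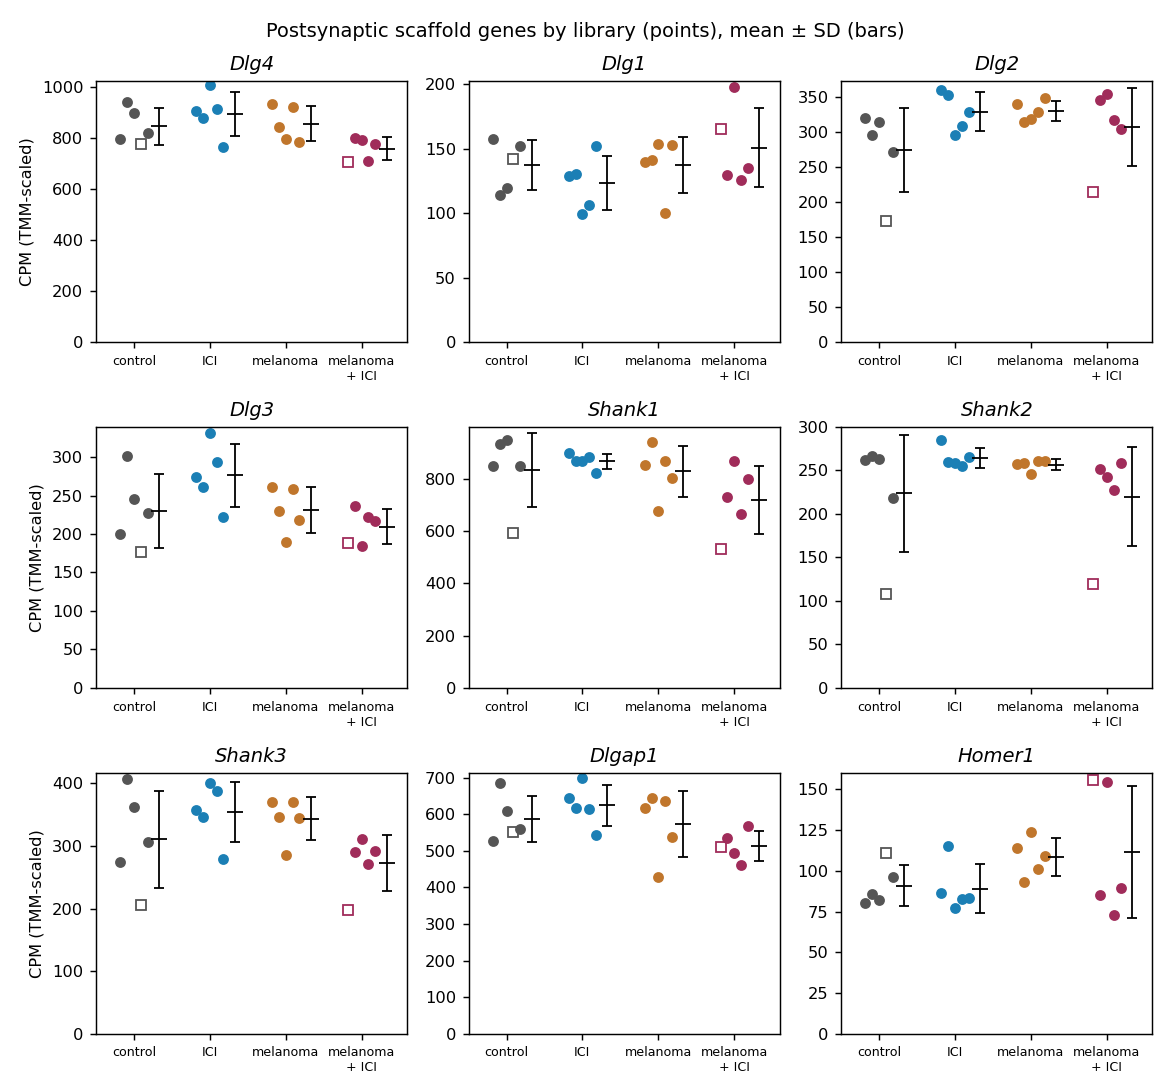
Level of each of the 9 scaffold genes in every library, in CPM scaled by TMM (y axis, from 0), for the 4 groups (x axis). Each point is 1 mouse, open squares are control replicate 4 and melanoma plus ICI replicate 1, and bars give the mean ± SD of 5. Dlg4 spans 706 to 802 CPM in melanoma plus ICI and 764 to 1008 CPM in ICI, while Homer1 splits in melanoma plus ICI into 2 libraries above 150 CPM and 3 below 90.

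In melanoma plus ICI against ICI, 7 of the 9 scaffold genes had lower means and 2, Dlg1 and Homer1, had higher ones. At an adjusted p under 0.05 (edgeR's quasi-likelihood test, Benjamini-Hochberg over 18427 genes), 0 of 9 were called, as were 0.0% of all genes tested. At an unadjusted p under 0.05, 4 of 9 were called, all lower, against 8.63% of all genes in either direction and 4.51% lower. These 4 were Dlg4, Dlg3, Shank3 and Dlgap1, which also moved together from mouse to mouse, so they are not 4 independent calls. For all 9 genes the libraries of the 2 groups overlapped, and among all genes 1.45% had groups that did not. Over the 9 genes the median log2 fold change was -0.27, and over all genes it was 0.02, with 45.01% of genes lower. DESeq2 and limma voom also gave 0 of 9 at an adjusted p under 0.05, and each gave 5 at an unadjusted p under 0.05, the same 4 and Shank1.

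Dlg4 had a log2 fold change of -0.24 (SE 0.09, unadjusted p = 0.0118, adjusted p = 0.563 by edgeR with Benjamini-Hochberg adjustment), a fold of 0.848. It was in the count at an unadjusted p under 0.05 with each of the 20 libraries left out in turn, with log2 fold changes of -0.29 to -0.19. Without control replicate 4 and melanoma plus ICI replicate 1 its log2 fold change was -0.21 (SE 0.08).

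Among its paralogues, Dlg3, most prominent early in development, averaged 276 ± 40.6 CPM under ICI alone and 210 ± 22.4 CPM under ICI with a tumour. The ICI libraries had 274, 261, 331, 294 and 222 CPM and the melanoma plus ICI libraries 189, 236, 184, 222 and 216 CPM. Of the melanoma plus ICI libraries 3 lay below every ICI library, and all 5 below the ICI median. The log2 fold change was -0.40 (SE 0.13, unadjusted p = 0.00775, adjusted p = 0.563 by edgeR with Benjamini-Hochberg adjustment).

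Dlg1, which also sorts receptors on their way to the synapse, leaned the other way. It was at 128, 130, 99.3, 106 and 152 CPM in ICI and at 165, 129, 197, 126 and 135 CPM in melanoma plus ICI. Only replicates 1 and 3 of melanoma plus ICI were above all ICI libraries, and the log2 fold change was 0.29 (SE 0.15, unadjusted p = 0.0667). Dlg2, the paralogue closest to PSD-95 in its synaptic role, gave -0.10 (SE 0.14, unadjusted p = 0.489), and 0.01 (SE 0.07) without the 2 libraries that stood apart, which changed its sign.

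The Shank genes all had lower means in melanoma plus ICI than in ICI. Shank3, the gene deleted in Phelan-McDermid syndrome, was at 358, 346, 401, 388 and 279 CPM in ICI and at 198, 291, 311, 272 and 293 CPM in melanoma plus ICI. All 5 melanoma plus ICI libraries were below the ICI median and 2 were below every ICI library. The log2 fold change was -0.38 (SE 0.16, unadjusted p = 0.0244, adjusted p = 0.563 by edgeR with Benjamini-Hochberg adjustment), and -0.28 (SE 0.12) without the 2 libraries that stood apart.

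Shank1 gave a log2 fold change of -0.27 (SE 0.13, unadjusted p = 0.0518) and Shank2 -0.27 (SE 0.20, unadjusted p = 0.196). Both values were smaller without the 2 libraries that stood apart, at -0.18 (SE 0.09) and -0.11 (SE 0.06). In those libraries Shank2 was at 108 and 120 CPM, against 218 to 284 CPM in the other 18, Shank1 at 594 and 531 CPM against 666 to 949, Shank3 at 205 and 198 CPM against 272 to 407, and Dlg2 at 173 and 213 CPM against 271 to 360. Each of the 4 genes had its 2 lowest libraries of all 20 here. Dlg4 did not separate the 2 libraries from the rest, with 775 and 706 CPM against 711 to 1008.

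Dlgap1, the link between the PSD-95 and Shank layers, was at 645, 617, 701, 616 and 543 CPM in ICI and at 512, 535, 494, 461 and 569 CPM in melanoma plus ICI. Of the latter, 4 lay below every ICI library. The log2 fold change was -0.28 (SE 0.11, unadjusted p = 0.0176, adjusted p = 0.563 by edgeR with Benjamini-Hochberg adjustment), and -0.28 without the 2 libraries that stood apart. It was -0.13 (SE 0.13, unadjusted p = 0.35) when each library's trend with gene length was removed and -0.09 (SE 0.14, unadjusted p = 0.509) when its GC trend was removed too. Dlgap1 has the longest exonic length of the 9 genes, 17.0 kb. Over the 20 libraries, with group means removed, its level gave r = 0.09 (rho = -0.02) with the length slope. The part of length in the Dlgap1 value was not tested.

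Homer1 was spread most widely in melanoma plus ICI, at 156, 85.1, 154, 72.9 and 89.5 CPM, against 86.7, 115, 77.0, 82.5 and 83.4 CPM in ICI. Replicates 1 and 3 of melanoma plus ICI were the highest of all 20 libraries and replicate 4 the lowest. The log2 fold change was 0.33 (SE 0.18, unadjusted p = 0.0894), and limma voom with quality weights gave -0.01. Without melanoma plus ICI replicate 1 it was 0.17 (SE 0.18), without replicate 3 it was 0.18 (SE 0.18), and with 1 surrogate variable 0.22 (SE 0.18).

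Leaving out ICI replicate 3, the library with the most Dlg4, reduced the 4 genes at an unadjusted p under 0.05 to 2, Dlg4 and Dlg3. Over the other libraries left out in turn the number was 3 to 6. Shank3 left the count on dropping either ICI replicate 4 or replicate 1 of melanoma plus ICI, and Dlgap1 without melanoma plus ICI replicate 4. The genes that entered were Shank1, which was lower, and Dlg1 and Homer1, which were higher. Dlg1 was in the count without ICI replicate 5, melanoma replicate 4, or melanoma plus ICI replicate 2 or 4, as well as with length trends removed (0.37, SE 0.16, unadjusted p = 0.0303), with GC and length trends removed, and with no filter on low counts. The Dlg1 value was smaller without melanoma plus ICI replicate 3 (0.18, SE 0.14), by limma voom (0.14, SE 0.13) and with the tissue scores described next (0.08, SE 0.09). Homer1 entered on leaving out replicate 2 of ICI, or replicate 2 or 4 of melanoma plus ICI. With scores of choroid plexus, striatum, dentate gyrus and neocortex genes as covariates, the number was also 2, but the genes were Shank1 (-0.38, SE 0.17) and Shank2 (-0.56, SE 0.23). In that fit Dlg4 had a log2 fold change of -0.14 (SE 0.10, unadjusted p = 0.2), Dlg3 -0.17 (SE 0.10) and Dlgap1 -0.10 (SE 0.11). Shank3 had -0.32 (SE 0.17, unadjusted p = 0.0759), so it too left the count.

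**Figure D2:**
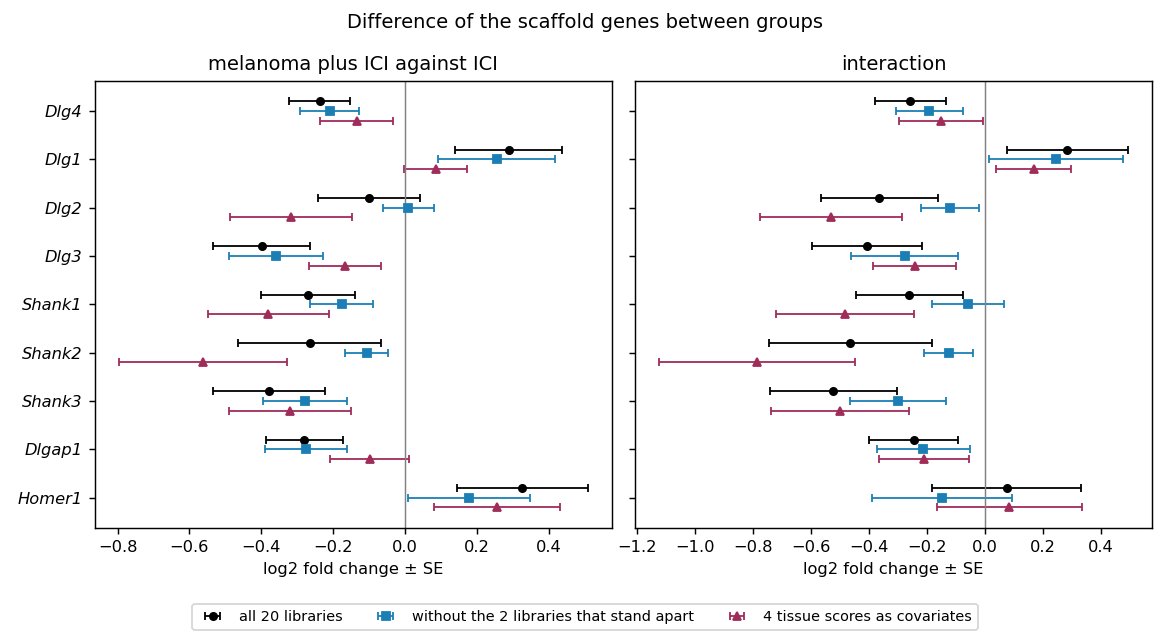
Log2 fold change ± SE (x axis) of the 9 genes (y axis) for melanoma plus ICI against ICI (left) and for the interaction of tumour and ICI (right), from edgeR. Black circles are all 20 libraries, blue squares leave out the 2 libraries that stood apart, and red triangles have 4 tissue scores as covariates. On the left Dlg4 goes from -0.24 to -0.14 with the tissue scores, and Shank2 goes from -0.27 to -0.11 without the 2 libraries and to -0.56 with the scores.

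The other comparisons share libraries with this one, so their values stand side by side and do not support each other. The interaction asks whether ICI acted differently with a tumour than without one. Its adjusted p called 0 of 9 genes (0.0% of all genes by edgeR), and an unadjusted p under 0.05 gave 3 of 9, all lower, against 10.3% of all genes in either direction and 4.28% lower. They were Dlg4 (-0.26, SE 0.12, unadjusted p = 0.0469), Dlg3 (-0.41, SE 0.19, unadjusted p = 0.0455) and Shank3 (-0.52, SE 0.22, unadjusted p = 0.0271). DESeq2 gave the same 3, and limma voom gave Shank3 alone. Dlg4 was in the count under 1 of 10 alternatives other than single libraries left out, which was DESeq2, and with 7 of 20 single libraries left out. With the tissue scores as covariates the 2 genes were Dlg2 and Shank2, and Dlg4 had -0.15 (SE 0.14). The number was 0 without control replicate 1, without ICI replicate 3, without melanoma plus ICI replicate 1, and without both libraries that stood apart. In all, 12 of the 20 libraries brought it to 1 or 0 when left out, the others of these being control replicates 4 and 5, ICI replicates 1 and 4, melanoma replicates 1, 2 and 4 and melanoma plus ICI replicates 4 and 5.

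In melanoma plus ICI against melanoma, 7 of 9 genes had lower means, 0 of 9 were called at an adjusted p (0.0% of all genes by edgeR) and 1 of 9 at an unadjusted p under 0.05 (5.5% of all genes, 2.87% lower). That gene was Shank3, with a log2 fold change of -0.33 (SE 0.16, unadjusted p = 0.0449). Dlg4 had -0.18 (SE 0.09, unadjusted p = 0.0537). By DESeq2 Dlg4 and Shank3 were in the count, by limma voom these and Shank1. Shank3 was not in it with the tissue scores, which gave Shank1 alone, nor with GC and length trends removed or without melanoma replicate 5, which gave Dlg4 alone. Without the 2 libraries that stood apart 0 of 9 remained, and the count went to 0 on leaving out any of 7 libraries, ICI replicates 1 and 2, melanoma replicates 1, 2 and 4, and melanoma plus ICI replicates 1 and 4.

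The remaining 3 comparisons, against control, called 0 of 9 genes by edgeR at either threshold when all 20 libraries were fitted with TMM and no covariates. The share of all genes at an adjusted p under 0.05 was 0.0% in each, and at an unadjusted p under 0.05 it was 5.23% for ICI, 5.11% for melanoma and 2.38% for melanoma plus ICI. The log2 fold changes of Dlg4 were 0.08 for ICI, 0.02 for melanoma and -0.16 for melanoma plus ICI (SE 0.09 each). The ICI value was 0.03 without ICI replicate 3 and 0.13 without ICI replicate 5. In the last, DESeq2 put Dlg4 at an unadjusted p under 0.05. Dlg4 and Shank1 were there by limma voom, with 1 surrogate variable, and with length trends, alone or together with GC trends, removed. Shank1 alone was there without both libraries that stood apart. Homer1 in melanoma had 0.25 (SE 0.18), and limma voom, as well as a fit of only the groups compared, put it at an unadjusted p under 0.05. In ICI against control, Dlg2 and Dlg3 were at an unadjusted p under 0.05 with the tissue scores, and Dlg3 without control replicate 2 or ICI replicate 5. Dlg2 was there in both ICI and melanoma against control without melanoma plus ICI replicate 1. Without control replicate 4, melanoma plus ICI against control had 3 genes at an unadjusted p under 0.05, Dlg4, Shank1 and Shank3. It had 1 gene on leaving out melanoma replicate 3 (Dlgap1), or replicate 3 (Shank1) or 4 (Homer1) of melanoma plus ICI.

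From mouse to mouse within groups, Dlg4 moved with some of the scaffold genes and against 1. For each gene the group mean of log2 CPM was removed, and Dlg4 was correlated with the 8 others over 20 libraries, with permutation tests (two-sided, 100000 resamples, Benjamini-Hochberg over 8 pairs). Both values of a point come from 1 library and share its depth. Of the 8, 5 passed an adjusted p of 0.05. The weaker of these were not rare. Of 10399 genes with a mean of at least 10 CPM, 721 had a higher r with Dlg4 than Shank1, the weakest positive one of the 5. Of the same genes, 2.40% had a lower r than Dlg1, the negative one. For the others, the share of genes with a lower r was 99.5% for Dlg3, 99.3% for Shank3 and 98.6% for Dlgap1. The correlation with Dlg3 was r = 0.83 (permutation p = 2e-05, adjusted p = 8e-05) and rho = 0.85 (permutation p = 1e-05, the smallest these resamples can give). With Shank3 it was r = 0.81 (permutation p = 1e-05, adjusted p = 8e-05) and rho = 0.88 (permutation p = 1e-05). With Dlgap1 it was r = 0.76 (permutation p = 9e-05, adjusted p = 0.00024) and rho = 0.82 (permutation p = 4e-05). These 3 are the genes that stood beside Dlg4 in melanoma plus ICI against ICI.

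Shank1 gave r = 0.60 (permutation p = 0.00472, adjusted p = 0.00755) and rho = 0.68 (permutation p = 0.00138). Dlg1 was the gene that ran against Dlg4, with r = -0.62 (permutation p = 0.00332, adjusted p = 0.00664) and rho = -0.67 (permutation p = 0.00156). Leaving out the 2 libraries farthest from the median in Dlg4, ICI replicates 3 and 5, gave r of 0.78 for Dlg3, 0.80 for Shank3, 0.72 for Dlgap1, 0.69 for Shank1 and -0.50 for Dlg1.

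Shank2, Dlg2 and Homer1 did not pass. Shank2 gave r = 0.42 (permutation p = 0.0684, adjusted p = 0.0912) and rho = 0.37 (permutation p = 0.108), and 0.53 without the 2 libraries farthest in Dlg4. It passed when control replicate 1, ICI replicate 3 or ICI replicate 5 was left out, with r up to 0.49 (adjusted permutation p = 0.0329). For Dlg2 r was 0.31 (permutation p = 0.183, adjusted p = 0.209) and rho 0.23 (permutation p = 0.326), with 0.47 without those 2, and for Homer1 r was -0.18 (permutation p = 0.441, adjusted p = 0.441) and rho -0.29 (permutation p = 0.208), with -0.19 without them. Without control replicate 4 and melanoma plus ICI replicate 1, r with Dlg2 was -0.07 and r with Homer1 was 0.02. Removing each library's trend with gene length brought r with Dlgap1 to 0.48 (adjusted p = 0.0535 by permutation).

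The values inside each group of 5 libraries are a description, with no test. Dlg3 followed Dlg4 with r of 0.96 for control, 0.98 for ICI, 0.90 for melanoma and 0.21 for melanoma plus ICI. Dlg1 gave -0.90, -0.92, -0.71 and 0.11 in the same order. Shank3 stayed at 0.73 or above in all 4 groups.

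**Figure D3:**
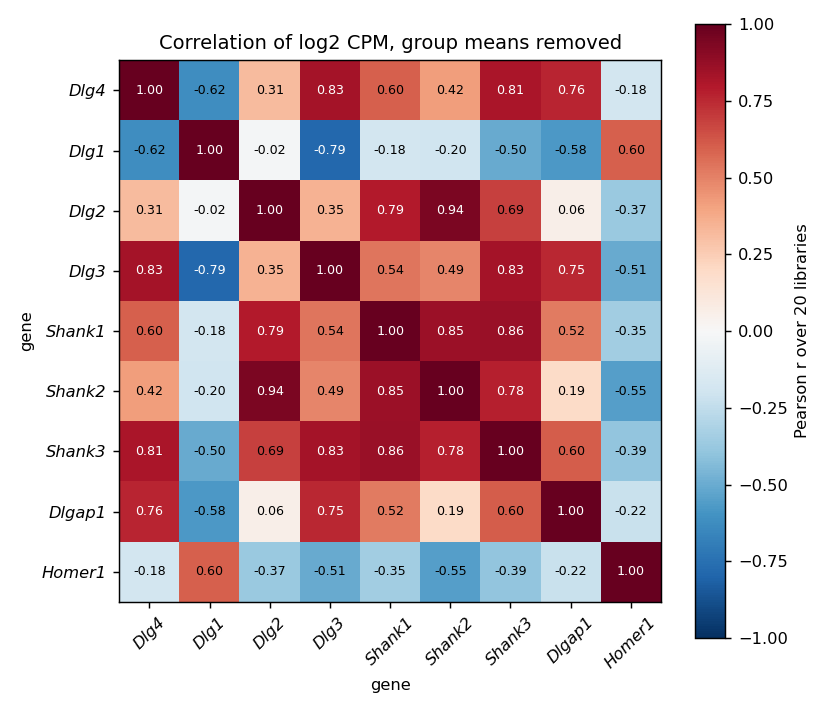
Pearson r between every pair of the 9 genes (both axes), from log2 CPM over 20 libraries with group means removed, coloured from -1 to 1. Dlg4, Dlg3, Shank3 and Dlgap1 have r from 0.60 to 0.83 with each other, Dlg2 and Shank2 have 0.94, and Dlg1 is negative with Dlg4 (-0.62), Dlg3 (-0.79) and Dlgap1 (-0.58).

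Dlg2 and Shank2 made a second pair, at r = 0.94 over all 20 libraries and 0.75 without the 2 that stood apart. Both followed the length slope of the library, with r of 0.93 for Dlg2 (permutation p = 1e-05, rho = 0.84) and 0.90 for Shank2 (permutation p = 5e-05, rho = 0.71), of 18 relations with length and GC trends. Without the 2 libraries these were 0.73 and 0.53. Shank1 and Shank3 gave r of 0.77 (rho = 0.45) and 0.74 (rho = 0.44) with the slope, but 0.32 and 0.36 without those libraries, on which the relations rest. With the slope of a library's levels on GC content, Shank1 gave r = 0.68 (adjusted permutation p = 0.00497) and Shank2 r = 0.65 (adjusted permutation p = 0.0115). By rank neither passed, with rho of 0.53 for Shank1 (adjusted permutation p = 0.107) and 0.42 for Shank2 (adjusted permutation p = 0.173). Without ICI replicate 2 and melanoma plus ICI replicate 1, the farthest in that slope, r was 0.68 for Shank1 and 0.59 for Shank2. Dlg2 and Shank3 each gave r = 0.53 with it (adjusted permutation p = 0.0363), and 0.52 and 0.46 without those 2. By rank rho was 0.22 for Dlg2 (permutation p = 0.354) and 0.49 for Shank3 (adjusted permutation p = 0.125), and these did not pass either. With the length slope, Dlg4 gave 0.30 (rho = 0.23), and 0.00 without control replicate 4 and melanoma plus ICI replicate 1. Dlg4 has the shortest exonic length of the 9 genes, 4.98 kb, and Dlgap1 the longest, 17.0 kb. The Shank1 and Shank3 transcripts are 61.4% and 62.4% G or C and that of Homer1 36.9%, around a median of 49.6% over genes tested.

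Genes outside the list followed Dlg4 more closely than its fellow scaffolds did. The 5 highest r among 10399 genes with a mean of at least 10 CPM were Adgrb2 (0.95), an adhesion receptor of the brain, Mtmr12 (0.93), a myotubularin-related protein, Add1 (0.93), a cytoskeletal adducin, Camk2a (0.92), the main kinase of the postsynaptic density, and Mast3 (0.92), a serine/threonine kinase. With GC and length trends removed, r was 0.86, 0.89, 0.65, 0.88 and 0.83 in the same order, so that Add1 lost most. There were 47 genes with a higher r than Dlg3, 69 than Shank3 and 141 than Dlgap1. The median over all genes was -0.01. Camk2a averaged 4665 ± 1092 CPM under ICI alone and 3344 ± 481 CPM under ICI with a tumour, with a log2 difference of -0.48 (SE 0.20, unadjusted p = 0.0297). All 5 genes had lower means in melanoma plus ICI. Adgrb2 (-0.46, SE 0.15) and Mast3 (-0.49, SE 0.21) were also at an unadjusted p under 0.05, while Mtmr12 had -0.35 (SE 0.17, unadjusted p = 0.0551) and Add1 -0.11 (SE 0.07, unadjusted p = 0.152).

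The scaffold genes also moved with markers of the parts of the hippocampus and of neighbouring tissue. Mean log2 CPM of 14 marker lists and of immediate early genes was correlated with each of the 9 genes, 135 relations in all with group means removed. After Benjamini-Hochberg adjustment over the 135, 27 passed. The libraries were shuffled freely here too, so p-values tend to be too small and calls near the threshold are the least certain. Dlg1 with neocortex genes was the highest, at r = 0.90 (permutation p = 1e-05, adjusted p = 0.000337) and rho = 0.88 (permutation p = 1e-05), and 0.91 without the 2 farthest libraries. Dlg1 ran against CA3 genes, with r = -0.82 (permutation p = 1e-05) and rho = -0.82 (permutation p = 2e-05), and -0.79 without the farthest 2. Dlg3 did the reverse, with r = -0.82 for neocortex (permutation p = 1e-05, rho = -0.83) and 0.83 for dentate gyrus genes (permutation p = 1e-05, rho = 0.86).

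Dlg4 gave r = 0.58 with dentate gyrus genes (permutation p = 0.00704, adjusted p = 0.0381, rho = 0.57 with permutation p = 0.0091) and -0.59 with neocortex genes (permutation p = 0.00646, adjusted p = 0.0381, rho = -0.60 with permutation p = 0.00615). Without the 2 farthest libraries they were 0.54 and -0.66. The call for dentate gyrus was lost without any 1 of 12 libraries (control replicates 1 to 4, ICI 3 to 5, melanoma 1 to 4 and melanoma plus ICI 2), with r of at least 0.49 and an adjusted permutation p of at most 0.132. That for neocortex was lost without any 1 of 11 (all controls, ICI 3 to 5, melanoma 4, melanoma plus ICI 1 and 2), with r of -0.51 or stronger and an adjusted permutation p of at most 0.118. Without both libraries that stood apart, r with neocortex was -0.53 (adjusted permutation p = 0.0876). Dlgap1 gave r = 0.75 with CA3 genes (permutation p = 1e-04, adjusted p = 0.00193, rho = 0.68) and 0.71 without the farthest 2. Astrocyte genes gave r = 0.70 with Shank2 (rho = 0.50), but 0.02 when the 2 libraries that stood apart were left out.

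Levels of these markers by group are given with no test, and the ranges of ICI and melanoma plus ICI overlapped for dentate gyrus, CA1, CA3 and neocortex. All 6 dentate gyrus genes passed the filter, and their summed level was 191 to 736 CPM in ICI and 125 to 254 CPM in melanoma plus ICI, with 141 to 742 CPM in control and 179 to 462 CPM in melanoma. Their mean log2 CPM was 5.50 ± 0.89 under ICI alone and 4.10 ± 0.75 under ICI with a tumour. CA1 genes were at 6.88 ± 0.07 and 6.31 ± 0.46, CA3 genes at 4.71 ± 0.63 and 4.19 ± 0.45, and neocortex genes at 5.07 ± 0.34 and 5.38 ± 0.62, each in that order. The score of neuron genes was not lower, at 9.11 ± 0.08 in ICI and 9.15 ± 0.18 in melanoma plus ICI, and its ranges overlapped. Some scores of other cell types and tissue had higher means in melanoma plus ICI, with 4.75 ± 0.12 and 5.05 ± 0.18 for endothelium, whose ranges overlapped between 4.92 and 4.93 alone. Meninges genes were at 3.54 ± 0.74 and 4.47 ± 0.55, choroid plexus genes at 3.93 ± 2.05 and 5.27 ± 2.02, and red blood cell genes at 0.16 ± 1.47 and 1.41 ± 0.74. Of these scores, choroid plexus, dentate gyrus and neocortex were in the fit with 4 tissue scores, in which Dlg4 had -0.14. CA1, CA3, neurons, endothelium, meninges and red blood cells were not in it, and their part in the result was not tested.

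Homer1 followed the immediate early genes, transcription factors and effectors switched on by neuronal firing, with r = 0.73 (permutation p = 0.00025, adjusted p = 0.00422) and rho = 0.58 (permutation p = 0.00884). It was 0.63 without melanoma plus ICI replicates 1 and 2, the farthest in that score. In melanoma plus ICI replicates 1 and 3, where Homer1 was at 156 and 154 CPM, the immediate early score was 6.31 and 5.88 and the neocortex score 5.96 and 6.09. Replicates 2, 4 and 5 had immediate early scores of 4.13, 4.49 and 5.27. Dlg1 was also at its highest in replicates 1 and 3, at 165 and 197 CPM. Homer1 with neocortex genes gave r = 0.65 (permutation p = 0.00183, adjusted p = 0.0154, rho = 0.58). With the 4 tissue scores in the fit, neocortex among them, Homer1 had a log2 fold change of 0.26 (SE 0.18) in melanoma plus ICI against ICI. The part of the immediate early genes was not tested.

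**Figure D4:**
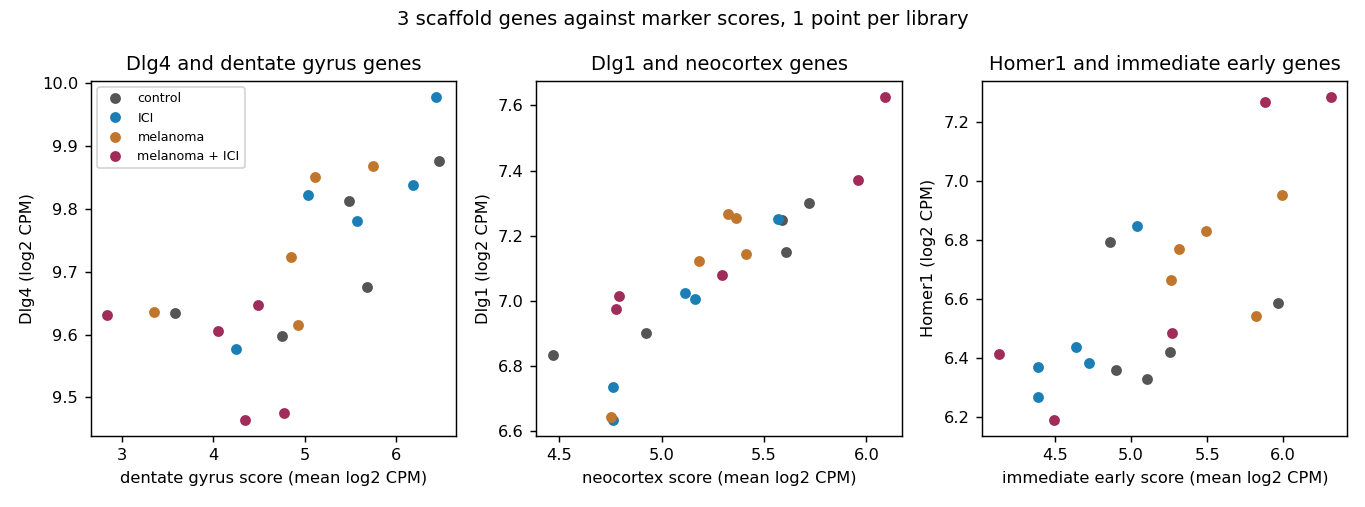
Dlg4 against the dentate gyrus score, Dlg1 against the neocortex score and Homer1 against the immediate early score (log2 CPM on both axes, 1 point per library, coloured by group, group means not removed). In the left panel the 5 melanoma plus ICI libraries lie below the median of each other group in Dlg4, with libraries of those groups among them, and 2 of them lie highest in Homer1 in the right panel.

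Other genes of the synapse, taken from fixed lists, were counted in melanoma plus ICI against ICI. At an adjusted p under 0.05, 0 genes of any list were called by edgeR. Over all genes 45.01% were lower, and at an unadjusted p under 0.05 there were 4.51% lower and 4.12% higher, the background for the counts that follow. Of 21 other scaffold genes 15 were lower, with a median log2 fold change of -0.12 and 3 at an unadjusted p under 0.05, all lower. That median was -0.06 without ICI replicate 1 or without melanoma plus ICI replicate 1, and -0.05 without the 2 libraries that stood apart. They ran from Grip2, an AMPA receptor adaptor (0.26, SE 0.21), to Tanc1, a scaffold of dendritic spines (-0.99, SE 0.40, unadjusted p = 0.023). The ICI mean of Tanc1 was 169 ± 60.6 CPM and the melanoma plus ICI mean 85.2 ± 39.5 CPM.

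Of 19 enzymes and regulators of the postsynaptic density 14 were lower, 7 of them at an unadjusted p under 0.05, with a median of -0.16. The extremes were Abhd17a (0.11, SE 0.15), which removes palmitate from PSD-95, and Camk2b, a subunit of CaMKII (-0.62, SE 0.21, unadjusted p = 0.00881), with means of 1498 ± 505 and 972 ± 85.2 CPM. Of 12 glutamate receptor genes and auxiliary subunits 10 were lower, 5 at an unadjusted p under 0.05, with a median of -0.28. Here the extremes were Cacng2, the AMPA receptor auxiliary subunit stargazin (0.22, SE 0.19), and Grin2a, an NMDA receptor subunit (-0.73, SE 0.24, unadjusted p = 0.00711).

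Adhesion partners had 7 of 10 lower and 0 at an unadjusted p under 0.05, between Ptprd (0.18, SE 0.20), a presynaptic receptor phosphatase, and Lrrtm1 (-0.33, SE 0.18), a leucine-rich repeat protein of the postsynaptic membrane. Without melanoma plus ICI replicate 2, 9 of these 10 were lower and 2 were at an unadjusted p under 0.05, as were 2 with 1 surrogate variable, while with the tissue scores 5 of 10 were lower. Spine actin genes had 6 of 8 lower, 3 at an unadjusted p under 0.05, between Cfl1 (0.09, SE 0.14), the actin-severing cofilin, and Cttn (-0.32, SE 0.15), cortactin. The inhibitory postsynapse, built on gephyrin in place of PSD-95, had 7 of 9 lower, 2 at an unadjusted p under 0.05, both lower. With the 4 tissue scores as covariates, the number at an unadjusted p under 0.05 was 1 each for the other scaffolds, the enzymes and regulators, the glutamate receptors and the inhibitory postsynapse, and 0 for spine actin. The median of the enzymes and regulators was -0.07 with length trends, or GC and length trends, removed, and that of the glutamate receptors -0.17 with the tissue scores. Without ICI replicate 3 the numbers were 2, 4, 3, 0 and 0 in the same order. With other single libraries left out they reached 7 of 21 other scaffolds and 5 of 8 spine actin genes (without ICI replicate 5), 8 of 12 glutamate receptor genes (without melanoma plus ICI replicate 2) and 10 of 19 enzymes and regulators (without melanoma plus ICI replicate 3), and spine actin had 0 without ICI replicate 1 or 4 and with GC and length trends removed.

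The immediate early genes had higher means in 12 of 12 cases by edgeR, 6 at an unadjusted p under 0.05, with a median of 0.74. Without melanoma plus ICI replicate 1, 12 were still higher, but 1 was at an unadjusted p under 0.05 and the median was 0.41. The number was 11 without melanoma plus ICI replicate 2 and 10 without replicate 4, 2 with the tissue scores, and 0 by limma voom, where 4 of 12 were lower. They ran from Egr3 (0.10, SE 0.22) to Egr2 (1.80, SE 0.60), the latter with means of 2.88 ± 1.80 and 10.01 ± 11.05 CPM. The highest Egr2 library, melanoma plus ICI replicate 1, had 28.99 CPM, and without it the log2 fold change was 0.87 (SE 0.50, unadjusted p = 0.103).

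Set against the mean log2 CPM of the 8 other scaffold genes, Dlg4 stood higher by 1.68 ± 0.13 for control, 1.62 ± 0.13 for ICI, 1.58 ± 0.09 for melanoma and 1.54 ± 0.09 for melanoma plus ICI (SD, n = 5, with no test). Between ICI and melanoma plus ICI this distance differed by less than 1 SD of either group, and between control and melanoma plus ICI by 0.13, more than 1 SD of either. Control replicate 4 was at 1.90 and the other controls at 1.57 to 1.67. Without that library the control mean was 1.62 ± 0.05 (SD, n = 4), and the gap of 0.08 was smaller than the SD of melanoma plus ICI. Gene overlaps were small: reads of a gene on the opposite strand amounted to 0.303% of the counts of Shank1 and 0.545% of those of Shank3.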

How the data were processed

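Total RNA from 1 frozen hippocampus per mouse was purified (Qiagen RNeasy Plus Universal Mini), per the labels' protocols. The deposited values are raw counts per gene that the authors made, 1 table per library, in the featureCounts layout per the file headers. STAR 2.5.2b and DESeq2 1.16.1 are named in the submitters' processing notes. The counting program, strandedness and annotation release are not given in the sources used here. Symbols came from GENCODE M21 (GRCm38) and matched 49326 of 49671 identifiers, and 5 of the 9 scaffold genes have the same start and end there. Coordinates are those of the count tables.

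Groups and replicate numbers came from the sample titles. Counts were scaled by TMM, filtered with filterByExpr (minimum count 10, minimum total 15), which left 18427 genes including all 9 scaffold genes, and tested with edgeR 4.0.16 (robust quasi-likelihood, R 4.3.3) in 1 fit of all 20 libraries with 6 contrasts. Adjusted p-values are by Benjamini-Hochberg. Those marked unadjusted, and permutation p-values not marked adjusted, are as the test gave them. CPM per kb divides by the exonic length in the tables. Correlations used log2 CPM with a prior count of 2, group means removed, in NumPy 2.4.6, with ranks from SciPy 1.17.1. Alternatives were TMM replaced by size factors, only the groups compared, no filter, 1 surrogate variable (sva 3.50.0), a block for replicate number, gene length trends removed, 4 tissue scores as covariates, the 2 libraries that stand apart left out, limma 3.58.1 voom, DESeq2 1.42.0, and each library left out. Removal of GC and length trends together was added after seeing the data. The fit was tested on simulated data. Replicates of a group differed far beyond sampling noise (chi-square per gene of 10.5 to 121 over 40 pairs).

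The scaffold genes, the lists of other genes and the 2 libraries left out were chosen with earlier results of these data known. Genes named beyond the 9 are the 5 most like Dlg4 and, for each list, the highest and the lowest log2 fold change in melanoma plus ICI against ICI. Single-gene values of the inhibitory postsynapse are not reported here.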

Additional observations from a re-analysis of the deposited data

Results flagged for a closer look

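Each of 68 sets of 5 libraries (the 9 scaffold genes, 2 ratios and 6 scores in 4 groups) was checked for a library far from the other 4, a check that chance meets in about 1 in 20 sets, and 7 sets met it. Control replicate 4 was far below the other controls in Shank1, at 594 CPM against 848 to 949, and far above them in the distance of Dlg4 from the other 8 scaffold genes, at 1.90 on the log2 scale against 1.57 to 1.67. Melanoma plus ICI replicate 1 was far below its group in Shank2, at 120 CPM against 227 to 259. Both are the libraries with the steepest length slopes.

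In the melanoma group, replicate 4 was low in Dlg1, at 99.8 CPM against 139 to 154, and replicate 3 was low in Shank2, at 246 CPM against 257 to 261, a gap of small size. ICI replicate 2 was high in Homer1, at 115 CPM against 77.0 to 86.7. Melanoma plus ICI replicate 3 was low in the CA3 score, at 3.39 against 4.23 to 4.49.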

How the results depend on the processing

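Under 31 alternatives (20 single libraries left out and 11 others, 10 for the interaction), 0 of 9 scaffold genes reached an adjusted p under 0.05 in each of 6 comparisons, and Dlg4 kept a negative log2 fold change in melanoma plus ICI against ICI and in the interaction. The Dlg4 correlations past the threshold numbered 5 to 6 with single libraries left out and 4 to 6 under 7 other alternatives, 4 where length trends, or GC and length trends, were removed and Dlgap1 was lost. The 27 relations with marker scores became 19 to 36 with single libraries left out, and the cause was not tested. With the replicate block 42 passed, but that setting also removed replicate means, while the shuffling still treated all 20 values as free. Its permutation p-values tend to be too small by more, so 42 is not on the same footing as 27. Replicate numbers did not pair the mice: of 30 same-numbered pairs, r of their deviations was -0.47 to 0.68, 11 were over 0.1 and 6 were best with their own number. With the block, Dlg4 in melanoma plus ICI against ICI was -0.24, and in the interaction -0.26 (unadjusted p = 0.061), where Dlg4 and Dlg3 left the count at an unadjusted p under 0.05 and Shank3 stayed; in the other 5 comparisons the genes in that count were those reported. Of the other lists, the 3 spine actin genes in that count became 0 with the block, the 5 glutamate receptor genes 7 and the 6 immediate early genes 4.

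Values that changed sign had an adjusted p over 0.05 under both settings; the cause was not tested. Dlg4 in melanoma against control was -0.0045 with 1 surrogate variable, -0.0060 with length trends and -0.013 with GC and length trends removed, -0.019 by limma voom, -0.017 without the 2 libraries that stand apart, and -0.022 to 0.051 with single libraries left out. Dlg2 in melanoma plus ICI against ICI was 0.018 with the surrogate variable, 0.0048 with length trends removed and 0.0087 without the 2 libraries. Homer1 there was 0.33, and -0.0063 by limma voom. In the interaction, Homer1 was -0.12 with the surrogate variable, -0.32 by limma voom, -0.15 without the 2 libraries and -0.073 to 0.21 with single libraries left out. Dlgap1 was -0.25 in the reported fit, 0.039 with length and 0.090 with GC and length trends removed. The correlations of Dlg4 with Dlg2 and Homer1 were -0.073 and 0.019 without the 2 libraries. With 5 mice per group, the SEs of the scaffold genes were 0.09 to 0.20 in melanoma plus ICI against ICI, and differences of more than 2 SEs, as for Dlg4 and Dlg3, were not called at an adjusted p.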
